A study of Mus musculus with 48 samples.

Results

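The genes described here form a list of 38 collagens and other extracellular matrix genes, measured in the kidneys of normal mice and of mice carrying the Hyp mutation. Members were taken by gene symbol, with 1 probe set for each gene, the one with the highest mean log2 signal. Of the 38 listed genes, 37 had a named probe set and the other was not analysed here. A total of 35 members passed a filter on low signals (above the median of the array in 3 or more of 24 arrays), among 18637 features tested (12833 with a gene name). Lama1 and Lamb2, which encode laminin chains, did not pass, and their signals are given without a test. The list was drawn up by function and not by the values, but results of these data were known when it was chosen.

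The kidney's matrix has 2 main parts. Basement membranes, which lie under the tubule cells and form the filter of the glomerulus, are sheets of collagen IV and laminin networks joined by nidogens and by perlecan (Hspg2). The interstitial matrix between the tubules holds fibrils of collagens I, III and V, a microfibril network of collagen VI, small leucine-rich proteoglycans that bind the fibrils, elastic fibres and adhesive glycoproteins such as fibronectin (Fn1). Interstitial fibroblasts, pericytes and vascular smooth muscle cells make much of the interstitial matrix, and podocytes and endothelial cells make the collagen IV and laminin of the glomerular membrane.

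In Hyp mice the X-linked gene Phex is mutated, and the animals waste phosphate in the urine and develop hypophosphatemic rickets. Male Hyp mice were Hyp/Y and female Hyp mice Hyp/+, and normal littermates served as controls. The mice were 10 weeks old and received a control diet or a low phosphorus diet, both from Teklad, for 3 days. Whole kidney RNA of 72 mice made up 24 pools, each of 3 mice, and the 3 factors of genotype, diet and sex formed 8 groups with 3 pools in each. Affymetrix 430A and 430B arrays were run on every pool. A pool averages its 3 mice, so p-values refer to the spread between pools and not between single mice.

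The deposited values are signals on a linear scale. Median signals lay between 164.6 and 211.2 on the 430A arrays and between 50.9 and 68.3 on the 430B arrays. Across probe sets, which are not independent, r between replicate pools was 0.962 to 0.982 on the 430A chip and 0.800 to 0.858 on the 430B chip. The sex labels matched the signals of Xist, which silences an X chromosome (at most 180.3 in male pools and at least 1457.9 in female pools), and of the Y-linked gene Eif2s3y (at least 211.0 and at most 6.9). Phex gave no check of the genotype, because its probe sets never exceeded 32.8 and 49.8, far below the medians. Of the representative probe sets of the 35 members, Col4a4 alone was on the 430B chip.

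To show where transcription of the genes that differed starts, the 250 bases before the RefSeq start (GRCm38.p6) are given for 4 members. The RefSeq promoter table held 25 of the 37 genes with a probe set, in 30 promoters. Pcolce2, Col6a3 and Col3a1 differed between the sexes and Nepn between the genotypes. Capitals mark matches, on either strand, to TATAAA (bound by the basal transcription machinery), CCAAT (bound by nuclear factor Y), GGGCGG (bound by Sp1) or AGAACA (the half-site of steroid receptors such as the androgen receptor). No match overlaps another. The windows lie at chr9:95637378-95637627, plus strand; chr1:90843972-90844221, minus strand; chr1:45311288-45311537, plus strand; and chr10:52391358-52391607, plus strand.
Pcolce2: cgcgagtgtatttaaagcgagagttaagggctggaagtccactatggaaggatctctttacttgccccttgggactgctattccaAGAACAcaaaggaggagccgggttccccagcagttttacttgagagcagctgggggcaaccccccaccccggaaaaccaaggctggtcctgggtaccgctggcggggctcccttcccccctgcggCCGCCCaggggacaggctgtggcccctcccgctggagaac
Col6a3: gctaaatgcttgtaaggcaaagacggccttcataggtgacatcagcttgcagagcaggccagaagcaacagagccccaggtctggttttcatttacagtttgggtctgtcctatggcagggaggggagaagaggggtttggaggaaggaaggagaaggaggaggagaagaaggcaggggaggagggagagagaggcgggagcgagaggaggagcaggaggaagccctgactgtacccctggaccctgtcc
Col3a1: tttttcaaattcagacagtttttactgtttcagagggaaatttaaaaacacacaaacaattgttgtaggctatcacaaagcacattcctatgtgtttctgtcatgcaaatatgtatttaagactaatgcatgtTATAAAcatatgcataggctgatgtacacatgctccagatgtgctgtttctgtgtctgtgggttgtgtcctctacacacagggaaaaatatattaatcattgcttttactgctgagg
Nepn: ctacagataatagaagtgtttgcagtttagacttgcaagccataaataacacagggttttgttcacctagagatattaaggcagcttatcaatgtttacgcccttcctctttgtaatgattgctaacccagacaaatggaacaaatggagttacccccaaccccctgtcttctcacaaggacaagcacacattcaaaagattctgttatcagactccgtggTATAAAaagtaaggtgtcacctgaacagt

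Col3a1 and Nepn each held 1 match to TATAAA, and Pcolce2 held 1 match each to GGGCGG and AGAACA. In Col6a3 these letters did not occur. The base composition differed, with 35.2% G and C in Col3a1, 40.4% in Nepn, 57.2% in Col6a3 and 61.2% in Pcolce2. Among all 32851 promoters of the table, the same 250 bases held TATAAA in 12.4%, CCAAT in 33.8%, GGGCGG in 32.7% and AGAACA in 16.1%. Among the 25 member genes, each counted if any of its promoters held the letters, the counts were 3, 8, 15 and 4 genes. The percentages are per promoter and the counts per gene, so they are not in the same unit. These matches describe letters and were not tested as binding sites.

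Most of the differences called among these genes were between the sexes, as they were among all features (2981 called for sex, 382 for genotype and 143 for diet). The genes lower in male than in female kidneys included chains of collagens I, III, V and VI, lumican (Lum), fibronectin, periostin (Postn) and the procollagen C-proteinase enhancer Pcolce2, and also the basement membrane genes Nid1, Nid2 and Lamb1. Other genes of the interstitium, among them Col1a1, Dcn, Sparc and Eln, were not called, and neither was any chain of collagen IV (Col4a5 was higher with median scaling). Of the 35 members tested, 17 were lower in male pools and 0 were higher (limma, adjusted p at most 0.05), against 9.89% of all features lower and 6.10% higher. The members' median log2 difference, male minus female, was -0.31, where that of all features was -0.05. All adjusted p-values here are from limma with Benjamini-Hochberg adjustment over all 18637 features, and differences are on the log2 scale ± SE. In bulk kidney RNA, fewer cells of a type and less RNA in each cell cannot be told apart.

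**Figure D1:**
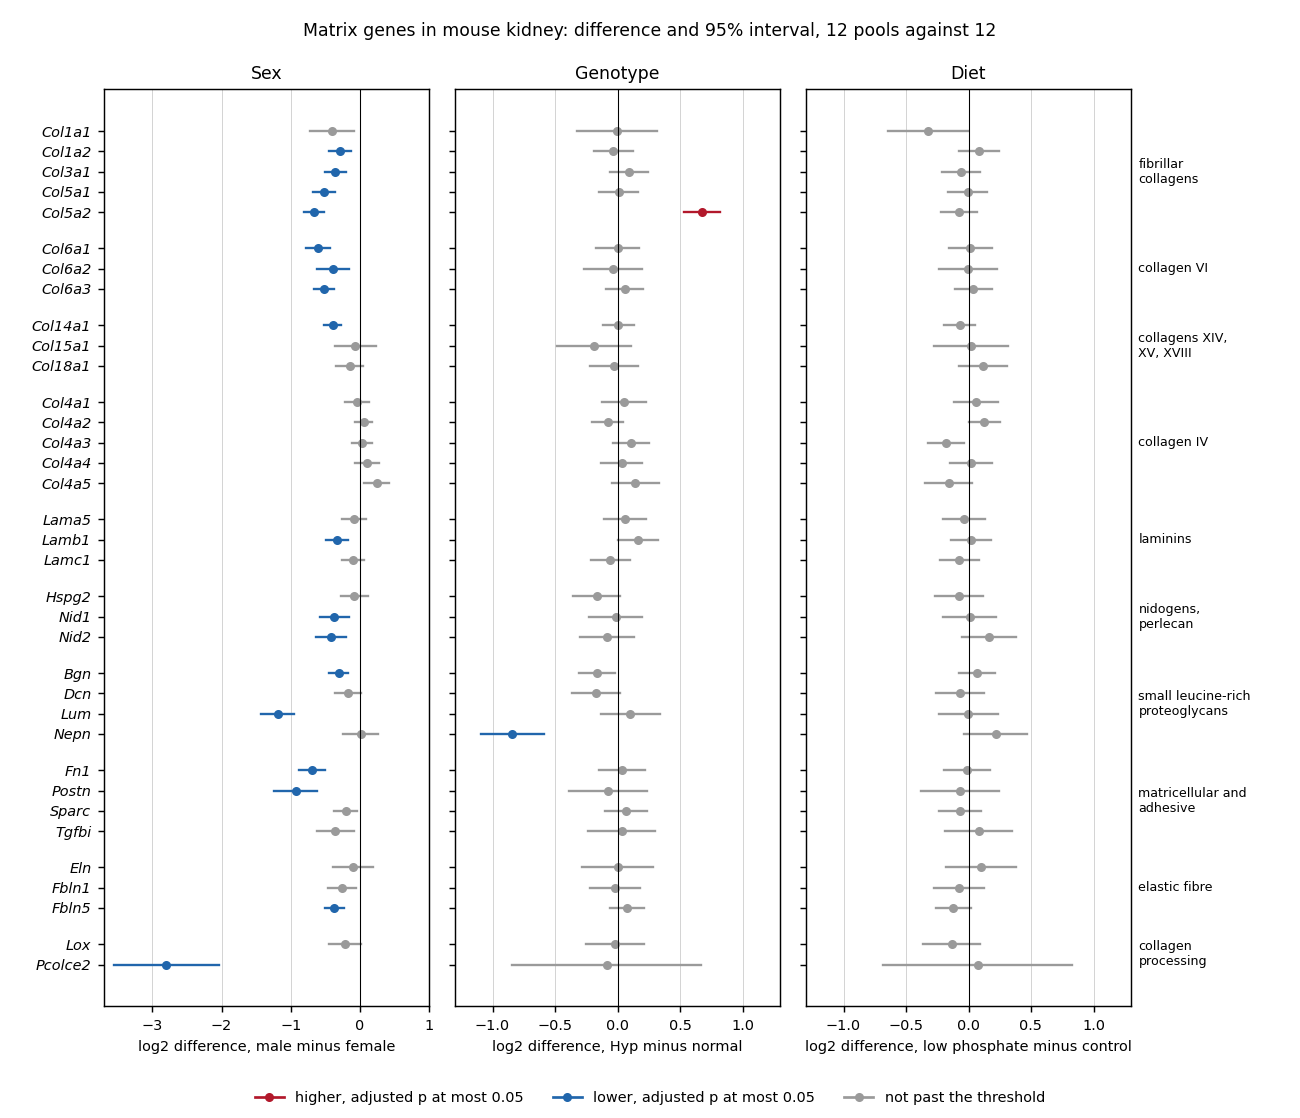
Log2 differences (points) with 95% intervals (bars) of the 35 tested members, ordered by role, for male minus female, Hyp minus normal and low phosphate minus control, each 12 pools against 12; the first panel has a wider axis. The 17 members in blue in the first panel were lower in males; Col5a2 (higher) and Nepn (lower) stand out in the second; in the third no member passed the threshold.

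The filter bears on 3 of these members. Pcolce2 and Postn exceeded the array median on 4 female arrays each and on 0 male arrays, and Lum did so on 12 female arrays and 1 male array. They entered the fit through the female pools and so had to be higher there. Among the 32 members that passed the filter in both sexes, 14 were lower in males and 0 were higher, and their median difference was -0.27.

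The fibrillar collagens give the interstitium its tensile strength, and 4 of 5 were lower in males. Col5a2, a chain of collagen V, which regulates how collagen I fibrils begin and how thick they grow, had a lowest, median and highest signal of 288.6, 441 and 660.4 in the 12 male pools. In the 12 female pools these were 480.5, 763 and 1036.1. The ranges overlapped across the genotypes, but within either genotype each male pool was below each female pool. The difference was -0.67 ± 0.07 (1.59-fold, adjusted p = 4e-07). Its partner chain Col5a1 fell from 412 ± 46.2 in females to 290 ± 43.3 in males (SD, n = 12 pools each), a difference of -0.52 ± 0.08 (adjusted p = 4.77e-05). Col3a1, the chain of collagen III, and Col1a2, a chain of collagen I, were lower in males by smaller amounts, -0.35 ± 0.07 and -0.28 ± 0.08 (adjusted p = 0.00161 and 0.0135). Col1a1, the other chain of collagen I, gave -0.40 ± 0.15 and did not pass (adjusted p = 0.0834). Its further probe set gave 0.07 ± 0.20, so the probe sets of Col1a1 disagree in sign.

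Collagen VI forms beaded microfibrils around cells, and its 3 measured chains were each lower in males. Col6a3 ranged from 406.7 to 509.8 in male pools (median 448) and from 493.9 to 823.0 in female pools (median 640). The ranges shared only a narrow band, and the difference was -0.52 ± 0.07 (1.43-fold, adjusted p = 1.61e-05). Col6a1 gave -0.60 ± 0.08 (adjusted p = 1.81e-05) and Col6a2 -0.39 ± 0.11 (adjusted p = 0.0193). Col14a1, a fibril-associated collagen that sits on collagen I fibrils, was lower by 0.39 ± 0.06 in males (adjusted p = 5.65e-05), with signals of 529 ± 52.9 against 693 ± 62.0. The basement membrane collagens Col15a1 and Col18a1 gave -0.07 ± 0.14 and -0.15 ± 0.09, neither past the threshold (adjusted p = 0.818 and 0.321).

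Collagen IV, the network-forming collagen of basement membranes, had 0 of 5 chains called for sex, and 4 of the 5 differences were above 0 (5 with median scaling), with a median of 0.06. Col4a1 and Col4a2, which build the collagen IV found in nearly every basement membrane, gave -0.05 ± 0.09 and 0.06 ± 0.06. Col4a3 and Col4a4, chains of the mature glomerular membrane, gave 0.03 ± 0.07 and 0.10 ± 0.08. Their 95% intervals exclude a fall of the size seen in collagen VI: that of Col4a1 ran from -0.22 to 0.13 and that of Col4a3 from -0.11 to 0.17. Col4a5, the X-linked chain, was the nearest of the list to a call in the male direction, at 0.24 ± 0.09 (adjusted p = 0.0716), and passed when arrays were scaled to a common median. The probe sets of this group do not agree among themselves. A further probe set of Col4a5 gave -0.18 ± 0.07, and 1 of Col4a4 on the 430A chip gave 0.29 ± 0.09 (adjusted p = 0.0266, from the fit of every kept probe set).

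Laminins are the other network of basement membranes. Lamb1, the beta1 chain, was lower in males by 0.34 ± 0.08 (adjusted p = 0.00412), while Lamc1 (-0.10 ± 0.08) and Lama5 (-0.08 ± 0.08), the gamma1 and alpha5 chains, did not pass. Lama1 and Lamb2 stayed below the filter, and their ranges overlapped between the sexes. Lama1 signals were 85.3 to 173.7 in male and 17.7 to 126.0 in female pools, and Lamb2 signals 73.7 to 162.3 and 116.9 to 189.7. The nidogens, which link laminin to collagen IV, were lower in males, Nid1 by 0.37 ± 0.10 and Nid2 by 0.42 ± 0.10 (adjusted p = 0.0162 and 0.00703). Perlecan (Hspg2), the heparan sulfate proteoglycan of the same membranes, gave -0.08 ± 0.09.

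Small leucine-rich proteoglycans coat collagen fibrils and limit their lateral growth. Lum showed the lowest adjusted p of the list for sex. Its signals were 95.3 to 212.1 in male pools (median 142) and 238.4 to 386.1 in female pools (median 330). No male pool reached the lowest female pool, and the difference was -1.19 ± 0.11 (2.28-fold, adjusted p = 1.12e-07). The male pools were low in both genotypes and on both diets, with 1 normal male pool on low phosphate, at 212.1, above the other male pools. Biglycan (Bgn), which is X-linked, was lower in males by 0.31 ± 0.07 (adjusted p = 0.00287). Decorin (Dcn, -0.17 ± 0.09) and nephrocan (Nepn, 0.01 ± 0.12) did not pass.

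Among the adhesive and matricellular glycoproteins, Fn1, which links cells to collagen through integrins, separated the sexes without overlap. Fn1 signals lay between 392.4 and 632.3 in male pools (median 508) and between 679.0 and 1077.1 in female pools (median 815). The difference was -0.69 ± 0.09 (1.62-fold, adjusted p = 7.65e-06). Postn, which is induced in wound repair and supports collagen assembly, was lower in males by 0.93 ± 0.15 (adjusted p = 1.3e-04) at signals of 90.0 ± 23.9 against 169 ± 36.5, below or near the array medians. Tgfbi, an adhesion protein induced by TGF-beta, gave -0.36 ± 0.13, and Sparc, a collagen-binding glycoprotein, gave -0.20 ± 0.08 (adjusted p = 0.0665 and 0.0975). A further probe set of Sparc gave -0.34 ± 0.07 and passed (adjusted p = 0.0012), while another, on the 430B chip, gave 0.25 ± 0.21 (adjusted p = 0.498), so the probe sets of Sparc disagree in sign.

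Of the elastic fibre genes, Fbln5, a fibulin needed to assemble elastin, was lower in males by 0.37 ± 0.07 (adjusted p = 4.36e-04), at 2190 ± 155 against 2840 ± 391. Fbln1 gave -0.26 ± 0.10 (adjusted p = 0.0799) and elastin (Eln) -0.10 ± 0.14. Pcolce2 helps the proteinase that removes the C-terminal propeptide of fibrillar procollagens, and it had the widest difference of the list. Its signals were 6.4 to 78.6 in male pools (median 26.2) and 118.6 to 233.4 in female pools (median 186), again without overlap. The fitted difference was -2.80 ± 0.36 (adjusted p = 9.26e-06), but at such low male signals its size depends on the scale, and with 32 added to each signal it was -1.76. Lox, the lysyl oxidase that crosslinks collagen and elastin, gave -0.21 ± 0.11 (adjusted p = 0.223). Over all features, all 12 male pools lay below all 12 female pools in 0.934%, and of the 32 members past the filter in both sexes in 1, Fn1. Lum and Pcolce2 did not overlap either, but entered through their female signals.

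**Figure D2:**
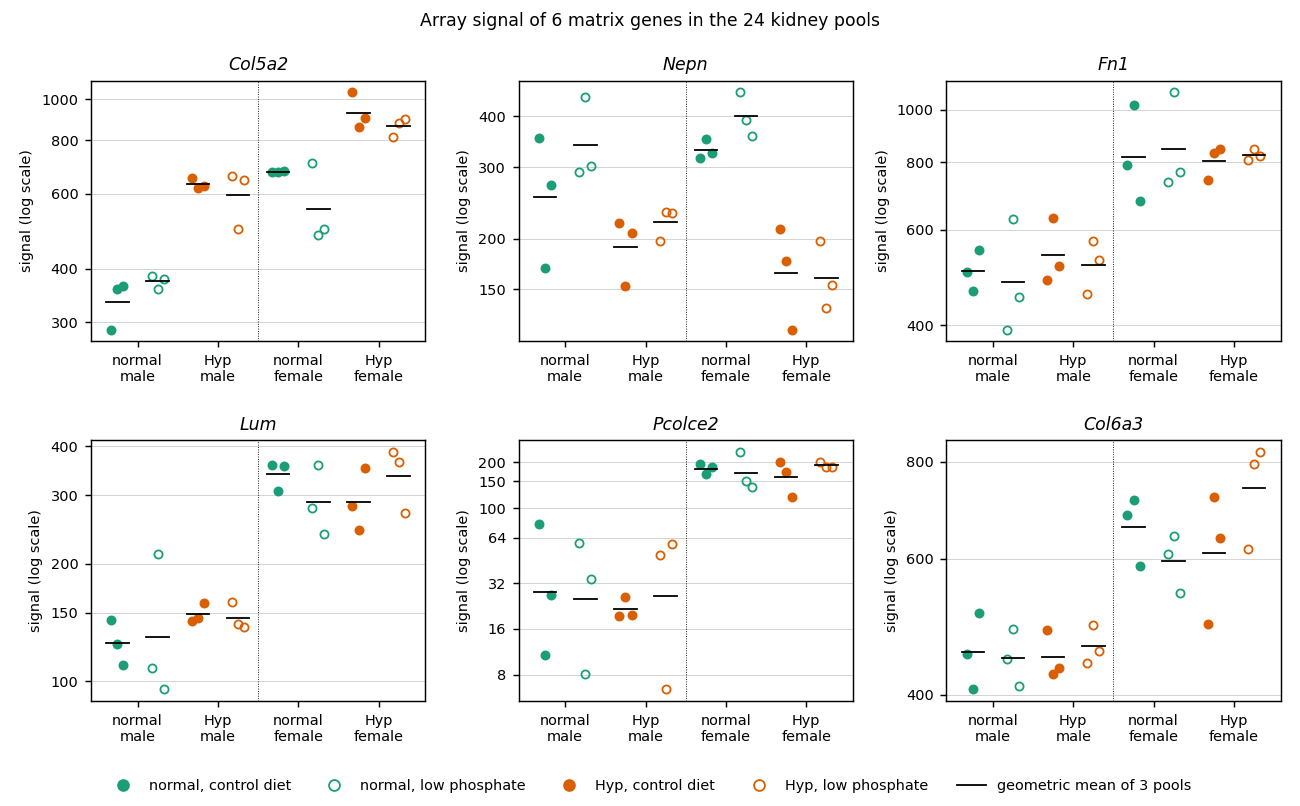
Array signals on a log scale in each of the 24 pools for 6 members, with normal pools in green, Hyp pools in orange, control diet filled and low phosphate open; lines are geometric means of 3 pools and the dotted line parts the sexes. Fn1, Lum and Pcolce2 do not overlap between the sexes, Col5a2 is higher in Hyp than in normal pools within either sex, and Nepn is lower in Hyp females than in normal females.

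The sex difference was next compared between sets of pools that share no sample. Lum, Pcolce2 and Postn, which entered through the female pools, are left out of these counts, a choice made after seeing the data. Of the other 32 members, 11 were lower in males in normal pools (6 males against 6 females), against 6.11% of features. In Hyp pools 8 were lower, against 3.35% of features. Hyp males were Hyp/Y and Hyp females Hyp/+, so sex and the state of the mutation cannot be told apart within Hyp pools. Col14a1, Col5a1, Col5a2, Col6a3 and Fn1 were called in both genotypes, and the share of all features called in both was not counted. The sign was the same in both genotypes for 26 of 32 members, where it was the same for 65.8% of all features. Across the 32 members, which are not independent and share their libraries, r between the genotypes was 0.473. On the control diet 10 members were lower in males and on low phosphate 10, against 4.32% and 5.0% of features. The same sign was seen on both diets for 27 of 32 members and 66.2% of features. The call over all pools averages the 4 combinations of genotype and diet, so the signs within these are not a separate check. Each of the 14 members called over all pools had a difference below 0 in all 4. Col6a1 was the most uneven of them, at -0.88 in normal pools on the control diet and -0.04 in Hyp pools on the control diet.

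**Figure D3:**
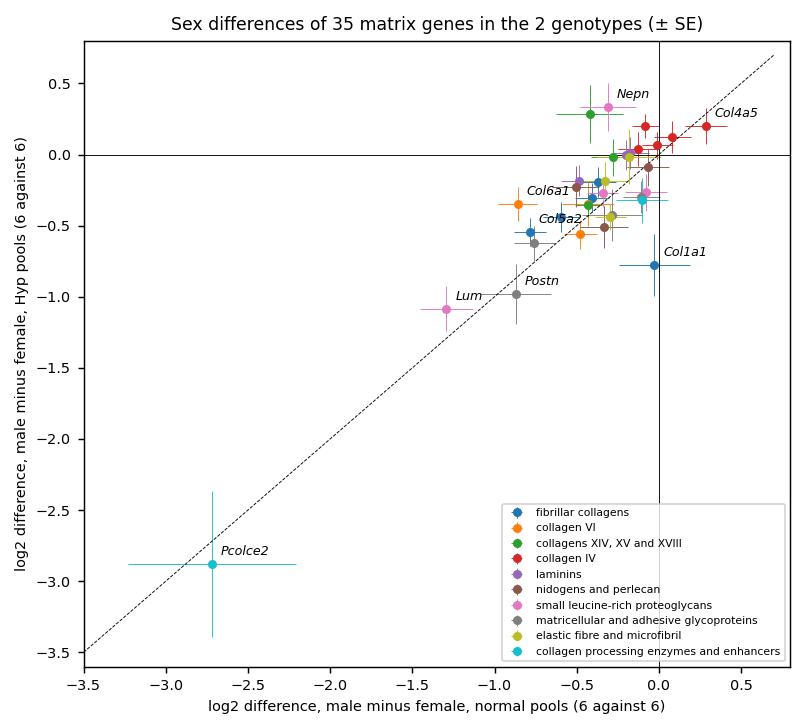
Log2 difference, male minus female, of the 35 members in normal pools (horizontal) and Hyp pools (vertical), with SE bars and colours by role; the dashed line marks equal differences. Pcolce2 and Lum lie far down the line, Col6a1 had -0.86 in normal and -0.35 in Hyp pools, and Col1a1 had -0.03 and -0.78.

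The scaling of the arrays affects how many features fall on either side. As deposited, 1137 features were higher and 1844 lower in males (61.9% of calls lower), but with each array scaled to a common median the split was 1674 to 973 (36.8% lower), and with quantile normalization 1266 to 1582. Of the members, 13 were lower and 1 (Col4a5) higher with median scaling, and 17 lower and 0 higher with quantile normalization. Counting every tested member, 30 of 35 differences were below 0 as deposited, 26 with median scaling and 29 with quantile normalization. With median scaling Col4a1 (0.05), Hspg2 (0.02), Lama5 (0.01) and Col15a1 (0.03) moved above 0, and Col15a1 did so with quantile normalization as well (0.03); none of them was called under any of these scalings. Bgn, Nid1, Col6a2 and Col1a2 lost their calls with median scaling, at -0.19 to -0.29.

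Genes of the same pathways outside the 38 were read against the same 9.89% of features lower and 6.10% higher. Of 17 other matrix glycoproteins and proteoglycans (median -0.32), 10 were lower in males and 0 higher (6 lower with median scaling), among them matrix Gla protein (Mgp, -0.80 ± 0.07), osteoglycin (Ogn, -0.51 ± 0.06), spondin 1 (Spon1, -0.54 ± 0.08) and the Sparc-like protein Sparcl1 (-0.56 ± 0.10). Of 10 other basement membrane genes (median -0.31) 4 were lower, including nephronectin (Npnt, -0.87 ± 0.13), Smoc2 (-0.51 ± 0.10), the Fraser complex gene Frem2 (-0.43 ± 0.09) and the laminin chain Lama2 (-0.48 ± 0.11), and 2 were higher, Lama3 (0.37 ± 0.09) and Fras1 (0.31 ± 0.09). Of 8 other collagens (median -0.19) 1 was lower, Col16a1 (-0.62 ± 0.16), and 0 were higher.

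The machinery that makes and anchors matrix was mixed. Of 14 genes of collagen synthesis and crosslinking (median -0.10), 6 were lower in males and 1 higher (3 and 2 with median scaling). The collagen chaperone Serpinh1 (-0.49 ± 0.06) and the lysyl oxidases Loxl1 (-0.41 ± 0.08) and Loxl4 (-0.88 ± 0.17) were lower, and Crtap, a subunit of the prolyl 3-hydroxylase complex, was higher (0.32 ± 0.06). Of 13 proteases and inhibitors (median -0.15) 2 were lower and 2 higher (0 and 3 with median scaling), the latter the meprins Mep1a (0.38 ± 0.06) and Mep1b (0.36 ± 0.05) of the proximal tubule brush border. The lower pair was the plasminogen activator gene Plat (-0.30 ± 0.08) and the gelatinase gene Mmp9 (-0.50 ± 0.16). Of 19 matrix receptors (median -0.15) 5 were lower and 1 higher (3 and 1 with median scaling): the integrin chains Itga6 (-1.03 ± 0.10), Itga1 (-0.41 ± 0.07) and Itgav (-0.29 ± 0.06) were lower, and the syndecan Sdc2 was higher (0.49 ± 0.08). Of 17 TGF-beta pathway genes (median -0.10) 6 were lower and 0 higher (4 and 1 with median scaling), among them the coreceptor Tgfbr3 (-0.45 ± 0.07), the target Ccn2 (-0.49 ± 0.09), the pseudoreceptor Bambi (-0.48 ± 0.09) and Smad4 (-0.23 ± 0.05). Of the pathway genes named for sex, Smad4, Plat and Mmp9 lost their calls with median scaling, and Mmp9 also with quantile normalization. Mean signals of Bambi, Loxl4 and Mmp9 were 129, 144 and 146 in male pools, below the 430A medians of 164.6 to 211.2. In female pools they were 180, 266 and 206. Such genes may have entered the fit through their female pools, which was not checked outside the list.

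Markers of the cells that make matrix were, in part, lower in males as well, where 9.89% of all features were lower and 6.10% higher. With median scaling 973 of 18637 features were lower and 1674 higher. For fibroblasts, 3 of 5 tested markers were lower in males, Gsn (-0.49 ± 0.07), Dpt (-0.73 ± 0.13) and Pdgfra (-0.40 ± 0.09). The summed signal of the 9 measured fibroblast markers was 3293 to 4822 in male and 4792 to 6199 in female pools. Such sums add linear signals as deposited and so follow the brightest genes. Gsn alone averaged 2460 in male and 3440 in female pools. For smooth muscle and pericytes, 3 of 6 were lower (1 with median scaling), and the sum over 8 markers was 2966 to 3786 in male and 3825 to 4845 in female pools, without overlap. For endothelium 4 of 9 were lower (3 with median scaling), with sums over 10 markers of 5169 to 6425 and 6202 to 7258. Podocyte markers (3 of 5 lower, 0 with median scaling), leukocyte markers (3 of 8, 2 with median scaling) and fat markers (3 of 3, 2 with median scaling) were also lower in males in part or whole. Kidney tubule markers were mixed, with Slc12a3 (not with median scaling, adjusted p = 0.0555 by limma) and Lrp2 lower and Slc34a1 higher. Of 5 tubule injury markers, Clu (-0.38 ± 0.06), Krt19 (-0.46 ± 0.12) and Vim (-0.32 ± 0.09, not called with median scaling) were lower in males and Havcr1 was higher (0.79 ± 0.13), with sums over all 7 measured markers of 4369 to 6533 in male and 5971 to 7938 in female pools. Clu alone averaged 4130 in male and 5360 in female pools. Several defining markers were at low signals in each pool: the fibroblast markers Pi16 and Clec3b never exceeded 123.6 and 128.6, and the smooth muscle marker Cnn1 never exceeded 77.8. Mean signals of Dpt and Krt19 were 137 and 138 in male and 220 and 192 in female pools, and those of Havcr1 190 and 110. The lower mean of each lay below the 430A medians (164.6 to 211.2). Entry into the fit through the brighter sex was not checked for these genes. The part of these cell types and of tubule injury in the sex difference of the matrix genes was not tested.

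**Figure D4:**
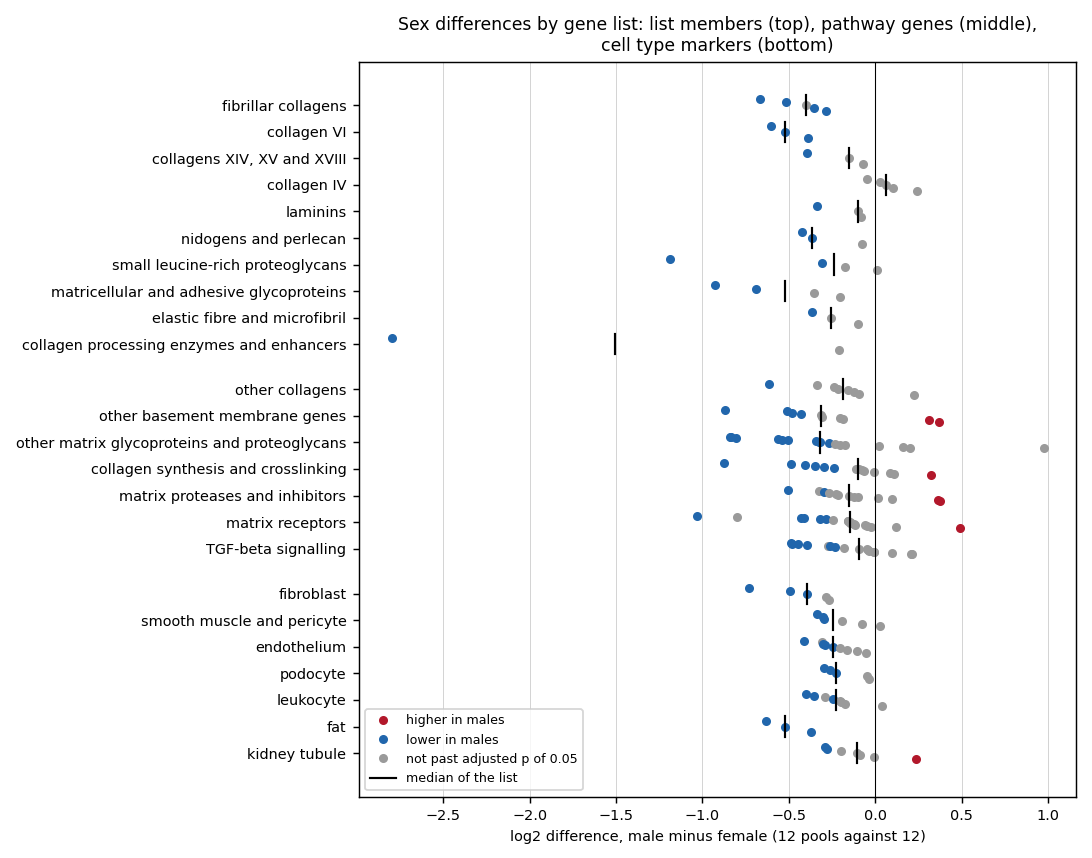
Log2 difference, male minus female, of each tested gene (points) and the median of its list (black bars), with the members by role at the top, 7 lists of pathway genes in the middle and 7 of 12 cell type marker lists at the bottom. Collagen VI and most fibrillar collagens lie left of 0 and collagen IV around 0; the fibroblast, smooth muscle, endothelium and fat medians lie left of 0 as well.

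Between the genotypes, 2 of the 35 members differed over both sexes and diets. Col5a2 was higher and Nepn lower in Hyp than in normal kidneys, against 1.11% of all features higher and 0.944% lower. The other 33 members gave differences, Hyp minus normal, between -0.19 and 0.16, and the members' median, like that of all features, was close to 0.

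Col5a2 showed the effect in both sexes and on both diets. In normal males its signals were 288.6, 358.5 and 364.1 on the control diet and 386.1, 359.4 and 379.3 on low phosphate. In Hyp males they were 651.6, 619.6 and 624.7 on the control diet and 660.4, 496.4 and 645.9 on low phosphate. Each Hyp male pool was thus above each normal male pool. In normal females the signals were 673.3, 675.4 and 677.8 on the control diet and 709.6, 480.5 and 495.9 on low phosphate. In Hyp females they were 1036.1, 859.5 and 901.6 on the control diet and 816.5, 880.5 and 896.9 on low phosphate. The genotypes did not overlap in females either, while Hyp males, at 616 ± 60.9 (SD, n = 6 pools), lay in the range of normal females, at 619 ± 102.

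The difference for Col5a2 was 0.67 ± 0.07 (1.59-fold, adjusted p = 3.54e-06). It was 0.79 ± 0.10 in males and 0.55 ± 0.10 in females (adjusted p = 6.57e-05 and 0.00622), where 0.842% and 0.290% of features were higher. The genotype-by-sex term for Col5a2 was 0.24 ± 0.14 (95% interval -0.05 to 0.53, adjusted p = 0.832), so a difference between the sexes was not detected. Within the 4 combinations of sex and diet, it ranged from 0.46 to 0.91. A second probe set of Col5a2 gave 0.42 ± 0.09 (adjusted p = 0.0195). Neither its partner chain Col5a1 (0.01 ± 0.08) nor Col3a1 (0.09 ± 0.07), the gene next to Col5a2 on chromosome 1, passed. Over all 24 pools the 12 Hyp and 12 normal pools overlapped for each member, and 0.0483% of features had no overlap.

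Nepn, which encodes nephrocan, a small leucine-rich protein found in kidney, was lower in Hyp pools, at 186 ± 37.9 against 336 ± 77.8 (SD, n = 12 each). In Hyp females its signals were 211.6, 176.2 and 119.4 on the control diet and 197.1, 134.6 and 154.0 on low phosphate. In normal females they were 315.5, 350.8 and 324.5 on the control diet and 458.0, 391.1 and 357.8 on low phosphate. No Hyp female pool reached the lowest normal female pool. In Hyp males the signals were 218.0, 153.1 and 206.6 on the control diet and 197.3, 231.9 and 231.1 on low phosphate. In normal males they were 353.8, 169.4 and 270.5 on the control diet and 292.5, 445.6 and 301.9 on low phosphate. A single normal male pool, at 169.4, fell among the Hyp pools, and the other 5 lay above them.

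The difference for Nepn was -0.84 ± 0.12 (1.79-fold, adjusted p = 2.16e-04). It was -1.16 ± 0.17 in females (adjusted p = 6.73e-04, where 0.397% of features were lower) and -0.52 ± 0.17 in males (adjusted p = 0.224). The genotype-by-sex term of 0.64 ± 0.24 did not pass (adjusted p = 0.687), so the difference between the sexes is not established. Nepn exceeded the array median on 11 normal and 6 Hyp arrays, so its Hyp signals lay near the array medians. The next members by adjusted p were Bgn (-0.16 ± 0.07, adjusted p = 0.342), Lamb1 (0.16 ± 0.08, 0.439) and Dcn (-0.17 ± 0.09, 0.537).

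Pathway genes around these members were read against the same 1.11% of features higher and 0.944% lower in Hyp pools. Of 14 genes of collagen synthesis and crosslinking, Plod2, a lysyl hydroxylase of collagen, was higher in Hyp pools (0.39 ± 0.08) and the transglutaminase Tgm2 lower (-0.34 ± 0.07). Of 13 proteases and inhibitors, Mep1b was higher (0.21 ± 0.05) and the inhibitor Timp3 lower (-0.28 ± 0.05). Of 19 receptors, Itga1 was higher (0.30 ± 0.07) and Itgb6, an epithelial integrin chain that activates TGF-beta, lower (-0.92 ± 0.10). With median scaling Tgm2, Mep1b and Itga1 lost these calls. Of 8 other collagens, 10 other basement membrane genes, 17 other glycoproteins and 17 TGF-beta pathway genes, 0 were called for genotype. Markers of fibroblasts (0 of 5), smooth muscle and pericytes (0 of 6), endothelium (0 of 9), podocytes (0 of 5), leukocytes (0 of 8) and fat (0 of 3) were not called either. The summed fibroblast signal was 3920 to 5581 in Hyp and 3293 to 6199 in normal pools. Of 7 kidney tubule markers, Slc12a3 (0.50 ± 0.05) and Slc4a1 (0.42 ± 0.09) were higher and Slc34a1 (-0.30 ± 0.06) lower in Hyp pools, with summed signals of 58257 to 69341 in Hyp and 57126 to 69326 in normal pools. The call of Slc34a1 was lost with median scaling (adjusted p = 0.0643 by limma). Of 5 tubule injury markers, Clu was higher (0.30 ± 0.06), with sums over all 7 measured markers of 5491 to 7938 and 4369 to 6941. Clu alone averaged 5230 in Hyp and 4260 in normal pools. The part of these cell types and of tubule injury in the differences of Col5a2 and Nepn was not tested.

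Between the diets, after 3 days, 0 of the 35 members differed by limma, against 0.767% of all features in either direction. At an unadjusted p under 0.05 by limma, where 1771 of all 18637 features lay in either direction, 1 member was higher and 2 were lower. These were Col4a2 (0.13 ± 0.06, adjusted p = 0.51), Col4a3 (-0.18 ± 0.07, 0.352) and Col1a1 (-0.32 ± 0.15, 0.521). Col4a3 signals were 1083.5 to 1553.6 on low phosphate (median 1270) and 1196.0 to 1614.5 on the control diet (median 1520), with wide overlap. Col5a2 and Nepn, the members that differed by genotype, gave -0.08 ± 0.07 and 0.22 ± 0.12 for diet. Among pathway genes 1 receptor was called for diet, Itgb6, which was higher on low phosphate (1.10 ± 0.10), and in the 12 marker lists 0 were called.

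No interaction was called for a member. Hyp males were Hyp/Y and Hyp females Hyp/+, so terms with both genotype and sex also compare these states of the mutation. For genotype by diet, genotype by sex, diet by sex and the 3-way term, 0 of 35 members passed, where 0.0161%, 0.0805%, 0% and 0% of features did. The lowest adjusted p of a member was 0.771, 0.561, 0.908 and 0.998 in turn. At an unadjusted p under 0.05 by limma were 5 members for genotype by diet (3 above 0 and 2 below), 5 for genotype by sex (4 above and 1 below) and 0 for the other terms. Of all 18637 features, 1001, 1207, 995 and 720 were under it for the 4 terms in turn. Col6a1 had the lowest p for genotype by sex, at 0.51 ± 0.17: its genotype difference was 0.26 ± 0.12 in males and -0.25 ± 0.12 in females. Col6a2 had the lowest p for genotype by diet, at 0.66 ± 0.22. The 95% interval of the genotype-by-diet term of Col5a2 ran from -0.32 to 0.26, a size that 3 pools in a group can leave unseen in this gene. Members with a larger SE, such as Col6a2, have wider intervals and can hide larger interactions.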

How the data were processed

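Kidney RNA pools were measured on Affymetrix mouse 430A and 430B arrays. The deposited signal intensity per probe set was made with GCOS 1.2, per the submitters' processing notes; its scaling is not given in the sources used here. For arrays, precision is limited by how many were run. Symbols came from the platform's annotation, updated through Entrez identifiers: of 45137 probe sets that are not controls, 35041 had 1 symbol, 936 several and 9160 none. Probe sets above the median of the array in 3 or more of 24 arrays were kept. For each gene, the brightest of its kept probe sets by mean log2 over both chips stood for it. Values below 1 were set to 1 before log2, and limma 3.58.1 was run (8 group means, chips fitted separately, contrasts with equal weights, threshold 0.05). The method was tested on simulated data in which pools varied independently. That test does not cover pools that vary together. The sample titles carry a series number that recurs in each group, and what it stands for is not given. Same-numbered pools deviated together weakly, though more than pools with different numbers, and were not paired in the main fit. Called members are given in full, with the 3 next by adjusted p for each main effect and up to 4 called genes from each pathway list. The members and lists were chosen with earlier results of these data known.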

Additional observations from a re-analysis of the deposited data

How the results depend on the processing

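Counts of called members were recomputed under 9 other settings and with each of 24 pools left out in turn. For sex, the count of 17, taken in either direction, ranged from 14 to 19, and with median scaling 13 were lower and 1 higher. For genotype the count stayed at 2, and for diet and the interactions at 0. A fit with the replicate number as a block (replicate block) called 19 members for sex, 2 for genotype and 0 for diet. The median correlation of deviations between same-numbered pools was 0.064 on the 430A and 0.022 on the 430B chip. Between pools with different numbers it was -0.034 and -0.011. Of 24 pools, 16 and 21 correlated best with their own number. That is a hint of pairing from the data, and the design does not say what the number stands for. No called difference of a member changed sign where it was tested; differences not called changed sign in at least 1 setting for 6 members for sex, 14 for genotype and 12 for diet. Calls lost were the 4 under median scaling given above; the cause was not tested. With the stricter filter 33 members were tested and 15 were lower in males; Pcolce2 and Postn were not tested there. Tgfbi, Col4a5 and Fbln1 passed for sex in 8, 6 and 3 of 33 settings. The size for Pcolce2 ranged from -2.98 to -1.76. Signal over background limits Pcolce2, Postn and Lum in males. The use of 1 probe set per gene limits Col1a1, Sparc, Col4a4 and Col4a5, whose probe sets disagree. Among the genes called for sex, 9 had further kept probe sets, 11 in all. Of these 11, 7 were called lower in males and 1 gave a difference above 0. The fit of the further probe sets was added after seeing the data.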
